A study of Mus musculus with 6 samples.

Results

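The mTOR pathway components were measured here as 10 genes of the gene count table, chosen by symbol from its 24499 genes: the kinase *Mtor*, its partners *Rptor*, *Rictor* and *Mlst8*, and the AKT, TSC, Rheb and S6 kinase relay (*Akt1*, *Akt2*, *Tsc1*, *Tsc2*, *Rheb* and *Rps6kb1*). RNA-seq was performed on day 3 iGCBs, germinal center-like B cells grown in vitro, from 3 cKO mice and 3 control mice. Naïve splenic B cells of individual mice were cultured with IL-4 on irradiated 40LB cells, a mouse fibroblast feeder line that presents CD40L and BAFF, and YFP+ cells were sorted. The cKO mice were homozygous for a floxed *Eif3e* allele (*Eif3e* fl/fl) and carried *Cγ1*Cre and the reporter *Rosa26-YFP*LSL, so that activated B cells lose the translation initiation factor subunit eIF3e. The labels call the other group control, the library names hold the letters cgWT, and elsewhere the study describes its YFP+ control mice as *Cγ1*Cre *Rosa26-YFP*LSL. Cells of both groups were sorted for YFP, the mark of Cre expression, and the ages of the mice are not given in the sources used here. In these mice Cre follows transcription of the Ig γ1 constant region, so the sorted cells are B cells that had switched on that locus.

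mTOR is a serine/threonine kinase that works in 2 complexes. mTORC1 holds mTOR, mLST8 and raptor, the product of *Rptor*, and promotes protein synthesis and growth when growth factors and amino acids are present. mTORC2 holds mTOR, mLST8 and rictor, and phosphorylates AKT. AKT in turn inhibits the TSC1-TSC2 complex, which otherwise switches off the GTPase Rheb, the direct activator of mTORC1. In germinal center B cells, mTORC1 is known for supporting cell growth after help from T cells, and mTORC2 and AKT for survival signals and restraint of FOXO factors. RNA levels do not measure kinase activity or the amount of protein in either complex.

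Of the 10 members, *Mtor*, *Rptor* and *Tsc2* rose in cKO iGCBs, *Rictor* and *Akt1* fell, and *Mlst8*, *Akt2*, *Tsc1*, *Rheb* and *Rps6kb1* did not pass the test (edgeR's quasi-likelihood test, Benjamini-Hochberg adjusted p under 0.05 over all genes). All 10 passed the filter on low counts. Among the 13296 genes tested, 24.1% were higher and 24.5% were lower by the same rule, so 3 and 2 of 10 members lay near the shares of all genes. With a fold change over 1.5 also required, 1 member was higher and 1 was lower, against 21.0% of all genes in either direction. The higher one, *Mtor* at 1.52-fold, was under 1.5-fold when cKO replicate 2 or control replicate 1 was left out. The 3 cKO and the 3 control libraries did not overlap for 6 members, against 58.7% of all genes. The median log2 fold change of the members was -0.15, against -0.0040 over all genes, and the median of its absolute size was 0.23, against 0.35.

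The 250 bases upstream of the RefSeq start are given for the members that rose and for *Rictor*, the member that fell most, as the sequence context of the opposite changes. Sequences are from RefSeq on GRCm38.p6, 5′ to 3′ on the strand of the gene, and cover chr4:148448332-148448581 (plus strand) for *Mtor*, chr11:119602655-119602904 (plus) for *Rptor*, chr17:24632628-24632877 (minus) for *Tsc2* and chr15:6708131-6708380 (plus) for *Rictor*. The starts used for the *Tsc2* and *Rictor* windows lie inside the gene spans printed further on, so these windows overlap those spans. Capitals mark matches to the motifs searched, on either strand.
Mtor: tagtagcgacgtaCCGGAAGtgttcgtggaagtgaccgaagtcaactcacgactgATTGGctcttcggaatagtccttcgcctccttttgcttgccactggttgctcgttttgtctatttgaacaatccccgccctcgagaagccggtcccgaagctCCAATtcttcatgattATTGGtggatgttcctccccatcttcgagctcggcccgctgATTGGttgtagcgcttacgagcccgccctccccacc
Rptor: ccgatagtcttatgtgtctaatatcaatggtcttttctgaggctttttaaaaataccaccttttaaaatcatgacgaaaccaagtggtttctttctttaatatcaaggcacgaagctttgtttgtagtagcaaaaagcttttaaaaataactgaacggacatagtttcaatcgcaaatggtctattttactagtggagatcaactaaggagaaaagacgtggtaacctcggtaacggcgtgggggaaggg
Tsc2: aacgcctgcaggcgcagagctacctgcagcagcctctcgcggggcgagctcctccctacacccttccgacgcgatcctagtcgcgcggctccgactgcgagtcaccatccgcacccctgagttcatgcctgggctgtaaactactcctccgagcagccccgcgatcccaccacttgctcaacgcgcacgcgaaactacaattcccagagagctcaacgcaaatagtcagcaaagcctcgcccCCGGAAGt
Rictor: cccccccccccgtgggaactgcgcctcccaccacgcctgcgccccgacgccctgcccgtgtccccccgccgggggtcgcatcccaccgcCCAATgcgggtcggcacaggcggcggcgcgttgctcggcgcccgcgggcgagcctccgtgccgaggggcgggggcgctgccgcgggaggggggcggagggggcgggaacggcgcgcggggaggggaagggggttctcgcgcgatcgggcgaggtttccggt

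The motifs searched on both strands were CCAAT (bound by NF-Y), CCGGAAG (the core of ETS sites), CACGTG (an E-box), TGATGCAA (bound by ATF4 with C/EBP factors), TGACGTCA (bound by CREB) and GTAAACA (bound by FOXO factors). None of these motifs contains another. The *Mtor* window held CCAAT 4 times, on both strands, and CCGGAAG once. The *Tsc2* window held CCGGAAG next to the RefSeq start, the *Rictor* window held CCAAT once, and none of the 6 motifs was found in the *Rptor* window. Over 32851 RefSeq windows of this length, CCAAT was present in 33.8% and CCGGAAG in 6.91%. CACGTG was found upstream of *Rheb* (6.02% of all windows) and GTAAACA upstream of *Akt1* (3.17%), while TGATGCAA (0.791%) and TGACGTCA (1.55%) were found upstream of none of the members. The *Rictor* window was 81.2% G and C and the *Rptor* window 37.6%, with 54.4% for *Mtor*, 62.8% for *Tsc2* and a median of 52.4% over all windows. These are matches of letters and no measurement of binding.

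The libraries held 39079582 to 45504570 estimated counts, at which 3 counts correspond to 0.0661 to 0.0763 CPM (CPM being a gene's share of its library's counts after TMM scaling, set to the same total in each library). The targeted gene *Eif3e* fell in every cKO library, from 406 ± 16.5 to 158 ± 13.1 CPM (SD, n = 3 each), which left transcript in the sorted cells. Summed B cell markers (7 of 7 measured) ranged from 4905 to 5345 CPM over the 6 libraries. Germinal center markers were at 268.6 to 278 CPM in cKO and 355.1 to 426.5 CPM in control, with 1 of 6 higher and 4 of 6 lower. Plasma cell markers ranged from 646 to 788 CPM in cKO and from 831 to 852 CPM in control, with 2 of 5 higher and 3 of 5 lower. Fibroblast markers, listed because the feeder line is a mouse fibroblast line that a sort for YFP+ cells would remove, summed to 96.4 to 113 CPM in cKO and 62.5 to 123 CPM in control, with 2 of 10 higher, 2 lower and *Postn* at 0 throughout. Myeloid markers summed to 9.90 to 13.7 CPM, with 1 of 5 higher, and T cell markers to at most 0.354 CPM, with *Cd3e* at 0. *Xist*, which is expressed from the inactive X chromosome of female cells, was high in cKO replicate 2 and control replicates 1 and 2 and at no more than 16 counts in the other 3. Whether these marker levels bear on the members' values was not tested. In bulk RNA, a change in the proportion of a cell type cannot be told apart from a change in RNA per cell.

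*Mtor* (chr4:148448582-148557685, plus strand), the kinase of both complexes, was measured at 107, 122 and 117 CPM in cKO and at 73.7, 75.7 and 78.7 CPM in control cells. Every cKO library was above every control library. By edgeR's quasi-likelihood test, the log2 fold change was 0.60 (95% interval 0.46 to 0.74, standard error 0.0617) with an adjusted p of 3.2e-05, or 1.52-fold, the largest rise among the members.

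*Rptor* (chr11:119602905-119899591, plus strand), the scaffold that brings substrates to mTORC1, was at 54.1, 62.9 and 64.4 CPM in cKO and at 43.6, 43.4 and 41.6 CPM in control. The groups did not overlap, and cKO replicate 1 was the lowest of its group for both *Mtor* and *Rptor*. *Rptor* rose by a log2 fold change of 0.50 (95% interval 0.32 to 0.67, standard error 0.0795, adjusted p = 0.000543), or 1.41-fold.

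*Rictor* (chr15:6708349-6800401, plus strand), the scaffold of mTORC2, moved the other way. It was at 69.7, 75.0 and 79.4 CPM in cKO and at 114, 128 and 125 CPM in control. The highest cKO library was thus below the lowest control library. Its log2 fold change was -0.71 (95% interval -0.86 to -0.56, standard error 0.0675, adjusted p = 1.93e-05), a mean level 1.64 times as high in control as in cKO cells. This was the largest change of any member in either direction.

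*Mlst8* (chr17:24473550-24479114, minus strand), which encodes the subunit that both complexes share, was at 18.6, 19.5 and 18.7 CPM in cKO and at 26.4, 25.8 and 18.8 CPM in control. Control replicate 3 lay within the range of the cKO libraries and apart from the other control libraries. The log2 fold change was -0.32 (95% interval -0.61 to -0.03) with an adjusted p of 0.064. Without control replicate 3 it was -0.46 (adjusted p = 0.00499), and DESeq2 gave -0.31 (adjusted p = 0.0437). It was smaller in size, at -0.21 (adjusted p = 0.199) with *Xist* as a covariate and -0.23 (adjusted p = 0.205) without control replicate 1. Over the 14 alternatives *Mlst8* passed in 2.

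**Figure D1:**
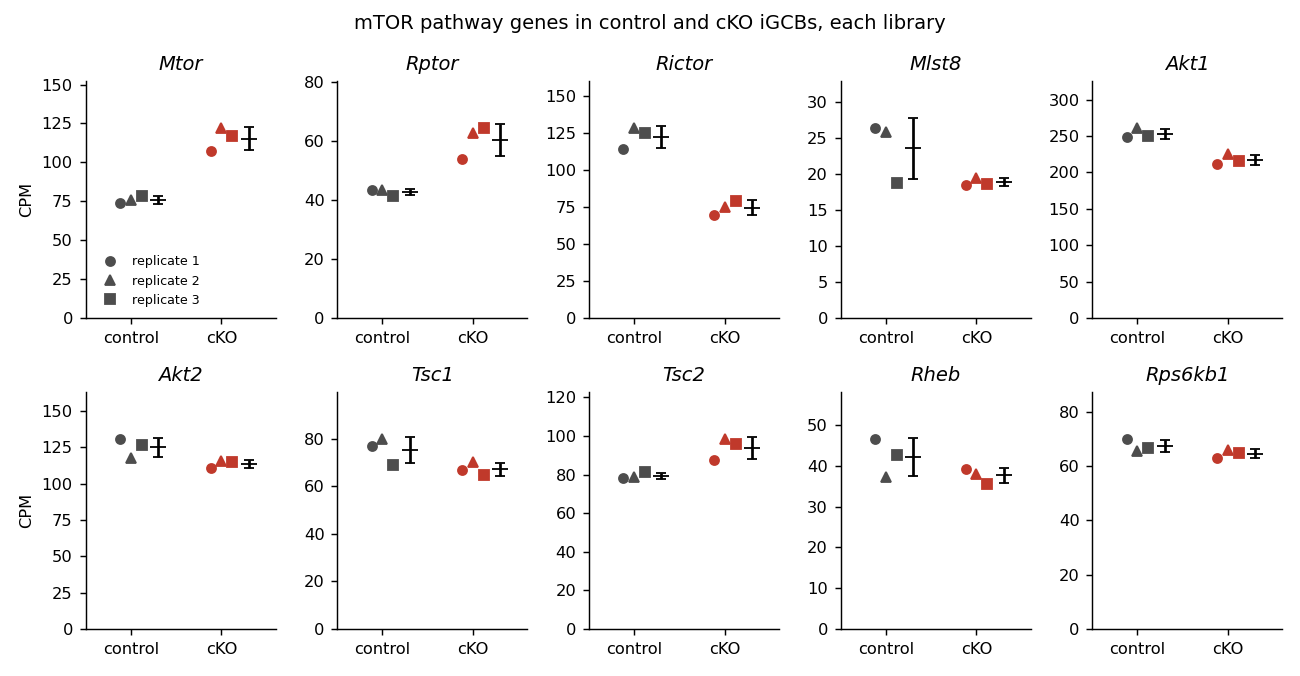
CPM (y axis, from 0 in each panel) of the 10 members in the 3 control libraries (grey) and the 3 cKO libraries (red), with the marker shape giving the replicate number and the black bar the mean ± SD of each group. *Mtor*, *Rptor* and *Tsc2* lie higher in all cKO libraries, *Rictor*, *Akt1* and *Akt2* lie lower, and the other 4 members overlap.

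*Akt1* (chr12:112653821-112674884, minus strand), the most abundant of the 10 per length of transcript, encodes a kinase that mTORC2 phosphorylates. It was at 211, 225 and 216 CPM in cKO and at 248, 260 and 249 CPM in control, with no overlap. *Akt1* fell with a log2 fold change of -0.22 (95% interval -0.32 to -0.11, standard error 0.0482, adjusted p = 0.00397), a smaller change than those of the mTOR scaffolds.

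*Akt2* (chr7:27591552-27640826, plus strand), a close paralog with a known role in insulin signalling, was at 110, 116 and 115 CPM in cKO and at 131, 118 and 127 CPM in control. The groups were separated by a narrow gap, with control replicate 2 next to the cKO libraries. Its log2 fold change was -0.14 (95% interval -0.26 to -0.01) with an adjusted p of 0.0655, and -0.19 (adjusted p = 0.023) without control replicate 2. Over the 14 alternatives it ranged from -0.19 to -0.11 and passed in that 1 alone.

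*Tsc2* (chr17:24595816-24632676, minus strand) encodes tuberin, the GTPase activating subunit that turns Rheb off. It was at 87.6, 98.4 and 95.7 CPM in cKO and at 78.5, 78.6 and 81.2 CPM in control, without overlap. *Tsc2* rose by a log2 fold change of 0.24 (95% interval 0.11 to 0.37, standard error 0.0588, adjusted p = 0.00652), or 1.18-fold. *Tsc2* shares 699 bases at its end with *Pkd1* on the other strand, and whether counting used strand is not stated. *Pkd1* was at 36.0 to 43.5 CPM over the 6 libraries and did not pass the test (adjusted p = 0.373).

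*Tsc1* (chr2:28640993-28691172, plus strand) encodes hamartin, which stabilizes tuberin. It was at 66.7, 70.1 and 64.7 CPM in cKO and at 77.1, 79.8 and 69.0 CPM in control, with control replicate 3 inside the cKO range. The log2 fold change was -0.16 (95% interval -0.32 to -0.01, adjusted p = 0.0696), and -0.22 (adjusted p = 0.0137) without control replicate 3. Over the 14 alternatives it ranged from -0.22 to -0.11 and passed in that 1 alone.

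*Rheb* (chr5:24802823-24842361, minus strand), the GTPase that activates mTORC1, was at 39.3, 38.0 and 35.6 CPM in cKO and at 46.6, 37.3 and 42.8 CPM in control. Control replicate 2 was lower than the first 2 cKO replicates. The log2 fold change was -0.17 (95% interval -0.37 to 0.04, adjusted p = 0.174), -0.25 (adjusted p = 0.0384) without control replicate 2 and -0.09 (adjusted p = 0.504) without control replicate 1. It passed in 1 of the 14 alternatives.

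*Rps6kb1* (chr11:86498869-86544885, minus strand), which encodes the S6 kinase that mTORC1 activates, was at 62.9, 66.1 and 64.7 CPM in cKO and at 70.0, 65.6 and 66.8 CPM in control. The groups overlapped. The log2 fold change was -0.06, the estimate nearest to 0 among the members, with a 95% interval of -0.19 to 0.06 (adjusted p = 0.394). Leaving out 1 library moved it from -0.04 (without control replicate 1) to -0.09 (without control replicate 2). *Rps6kb1* shares 139 bases with *Rnft1* on the other strand, which was at 23.2 to 35.9 CPM (adjusted p = 0.0603).

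The other overlapping genes with counts here were near the counting floor. *Angptl7* (within *Mtor*), *Rptoros* (antisense to *Rptor*), *Bricd5* (over the end of *Mlst8*) and *Mir6939* (within *Akt1*) were each at no more than 0.254 CPM in any library.

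Levels of members were also compared with each other within each library, where scaling between libraries has no part. The ratio of *Rptor* to *Rictor* counts was 0.776, 0.838 and 0.811 in cKO and 0.382, 0.339 and 0.333 in control cells. The mean log2 ratio was 1.20 higher in cKO cells, a 2.30-fold difference, and the groups did not overlap. In all, 6 such ratios were tested with an exact two-sided permutation test over the samples, adjusted over the 6, in which 3 mice against 3 can give no p below 0.1. For *Rptor* over *Rictor* the exact permutation p was 0.1, the smallest possible (adjusted 0.15). Among all 45 pairs of members, 31 had ratios that did not overlap between groups. These included all 9 pairs with *Rictor* and all 9 with *Tsc2*.

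The ratio of *Rictor* to *Mtor* counts was 0.650, 0.616 and 0.679 in cKO and 1.55, 1.69 and 1.59 in control, so *Rictor* had more counts than *Mtor* in each control library and fewer in each cKO library. The log2 ratio differed by -1.31 (exact permutation p = 0.1, adjusted 0.15). The ratio of *Rptor* to *Mtor*, both of which rose, was 0.504, 0.516 and 0.551 in cKO and 0.591, 0.573 and 0.528 in control. These overlapped, with a difference of -0.11 on the log2 scale (exact permutation p = 0.2, adjusted 0.24).

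For the subunits of the TSC complex, the ratio of *Tsc1* to *Tsc2* was 0.761, 0.712 and 0.676 in cKO and 0.982, 1.01 and 0.849 in control. The log2 ratio was lower in all cKO libraries, by -0.40 on average (exact permutation p = 0.1, adjusted 0.15). The ratio of *Tsc2* to its target *Rheb* was higher in each cKO library, at 2.23, 2.59 and 2.69 against 1.69, 2.11 and 1.90, a log2 difference of 0.40 (exact permutation p = 0.1, adjusted 0.15). The ratio of *Akt1* to *Akt2* overlapped between groups, with a mean of 1.91 in cKO and 2.02 in control (log2 difference -0.08, exact permutation p = 0.3, adjusted 0.3). Without control replicate 2 this difference was -0.01, and without control replicate 1 it was -0.12.

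**Figure D2:**
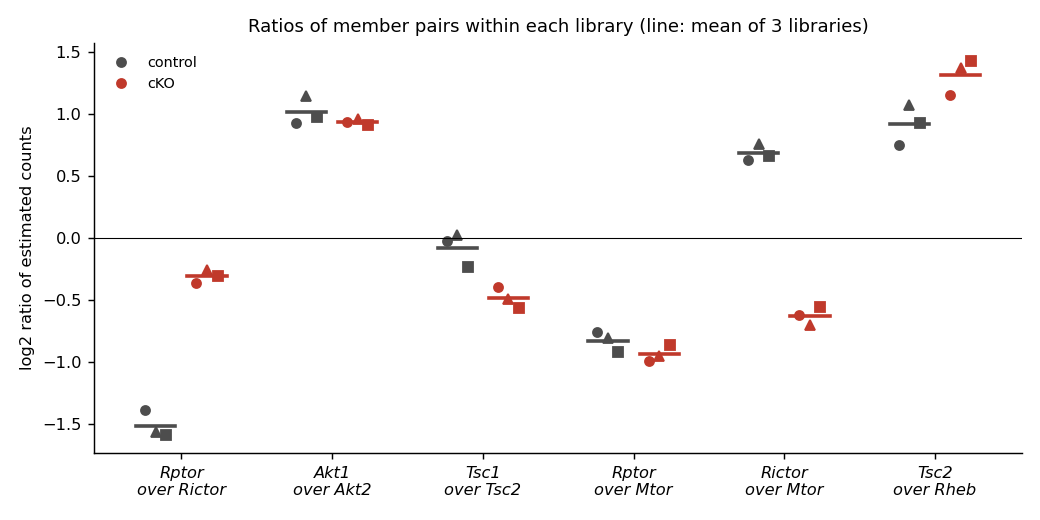
Log2 ratio of estimated counts (y axis) of 6 pairs of members in each control library (grey) and each cKO library (red), with marker shapes for the replicate number and a line at the mean of 3 libraries. The ratio of *Rptor* to *Rictor* lies 1.20 higher and that of *Rictor* to *Mtor* 1.31 lower in cKO cells, while *Akt1* over *Akt2* and *Rptor* over *Mtor* overlap.

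To compare levels between genes, CPM was divided by the length in kb of each member's transcripts. On this scale control cells had *Akt1* first at 93.9 ± 2.49 CPM per kb, then *Akt2* at 27.5 ± 1.44, *Rheb* at 23.7 ± 2.60, *Tsc2* at 14.0 ± 0.358, *Rictor* at 13.1 ± 0.790, *Rps6kb1* at 12.4 ± 0.376, *Tsc1* at 9.80 ± 0.736, *Mtor* at 8.88 ± 0.296, *Mlst8* at 7.04 ± 1.27 and *Rptor* at 6.50 ± 0.164 (SD, n = 3). Neighbours that overlapped between libraries were *Akt2* and *Rheb*, *Rictor* and *Rps6kb1*, *Tsc1* and *Mtor*, and *Mlst8* and *Rptor*.

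The first 4 places were the same in cKO cells, with *Akt1* at 80.8 ± 2.63 CPM per kb. *Mtor* moved from the 8th place to the 5th, at 13.5 ± 0.863 CPM per kb, *Rptor* from the 10th to the 7th, at 9.16 ± 0.842, and *Rictor* from the 5th to the 9th, at 8.02 ± 0.524. *Rps6kb1* kept the 6th place at 11.8 ± 0.285, *Tsc1* was 8th at 8.75 ± 0.348, and *Mlst8* was last at 5.64 ± 0.161 CPM per kb. In cKO cells *Rptor* overlapped *Tsc1*, and *Tsc1* overlapped *Rictor*. Per length, *Rictor* was above *Rptor* in each control library (12.2, 13.7 and 13.4 against 6.61, 6.58 and 6.31 CPM per kb), whereas in cKO cells it was below *Rptor* in each library (7.48, 8.05 and 8.53 against 8.20, 9.53 and 9.76).

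Close partners and paralogs of the members were described for 8 genes, of which 3 rose, 2 fell and 3 did not pass. The 3 became 1 without cKO replicate 3, and 2 without cKO replicate 1, cKO replicate 2, control replicate 1 or control replicate 2. They were also 2 in DESeq2, with no filter on low counts, and with the replicate number or *Xist* as a covariate. The 2 that fell became 1 without any 1 of the libraries other than cKO replicate 1. They were also 1 with no such filter and with the replicate number as a covariate. Among the partners in mTORC1, *Akt1s1*, which encodes the inhibitory subunit PRAS40, was at 31.4, 33.0 and 33.6 CPM in cKO and 24.0, 27.2 and 27.5 CPM in control. It rose with a log2 fold change of 0.32 (adjusted p = 0.0121), a call lost without cKO replicate 3 (adjusted p = 0.0511).

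Partners in mTORC2 moved in both directions. *Prr5*, whose product protor-1 binds rictor, was at 22.8, 22.8 and 21.0 CPM in cKO and 44.8, 50.0 and 47.2 CPM in control. It fell with a log2 fold change of -1.09 (95% interval -1.28 to -0.91, adjusted p = 5.26e-06), further than *Rictor*. *Mapkap1*, which encodes the essential mTORC2 subunit SIN1, was at 66.5, 69.4 and 71.6 CPM in cKO and 57.6, 58.0 and 55.4 CPM in control. It rose (log2 fold change 0.28, adjusted p = 0.00306), so the specific subunits of mTORC2 did not all change the same way. *Prr5l*, a paralog of *Prr5*, was at 0.340 to 0.798 CPM in the 6 libraries, and its log2 fold change of 0.03 had an interval of -1.10 to 1.16 and turned negative in 4 of 14 alternatives. *Deptor*, which encodes an inhibitor of both complexes, was at 0.400 to 0.919 CPM in cKO and 0.267 to 0.560 CPM in control (log2 fold change 0.72, 95% interval -0.49 to 1.92, adjusted p = 0.307), with 0.47 without cKO replicate 3 and 0.48 without control replicate 3.

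In the relay, *Rhebl1*, a relative of *Rheb*, was at 4.91, 5.69 and 5.26 CPM in cKO and 3.79, 3.66 and 4.13 CPM in control. It passed narrowly with a log2 fold change of 0.45 (adjusted p = 0.0429) and did not pass in 9 of 14 alternatives. *Rps6kb2*, which encodes the second S6 kinase, was at 27.6, 24.3 and 25.0 CPM in cKO and 28.7, 30.9 and 31.1 CPM in control. Its log2 fold change of -0.24 (adjusted p = 0.0424) did not pass in 7 of 14 alternatives. *Tbc1d7*, the third subunit of the TSC complex, was at 7.80 to 10.2 CPM in cKO and 7.78 to 10.3 CPM in control (log2 fold change -0.10, adjusted p = 0.641), and its log2 fold change ranged from -0.22 without cKO replicate 3 to -0.02 without cKO replicate 1.

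**Figure D3:**
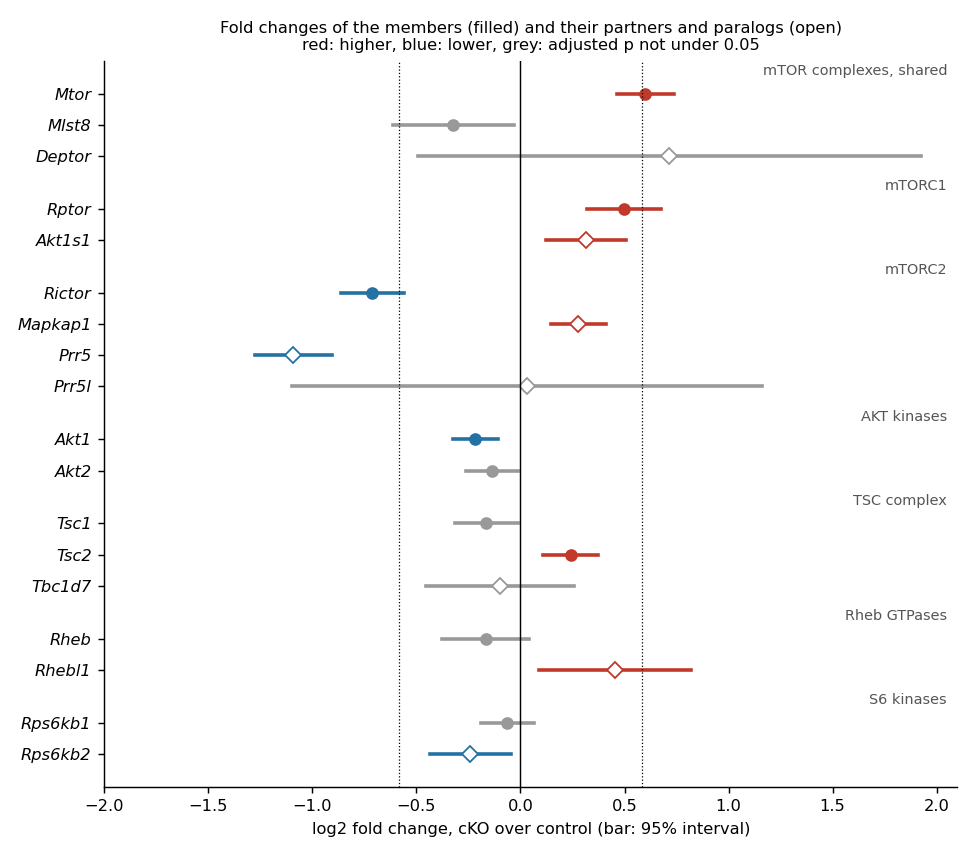
Log2 fold change of cKO over control (x axis) with its 95% interval for the 10 members (filled circles) and their 8 partners and paralogs (open diamonds), grouped by complex or step, in red where higher, blue where lower and grey where the adjusted p was not under 0.05. Dotted lines mark a 1.5-fold change, which *Mtor*, *Rictor* and *Prr5* passed with an adjusted p under 0.05.

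Other genes of the pathway were described in 6 further lists, and with the partners and paralogs 110 genes were measured, of which 31 rose and 42 fell. These lists, like the members, were drawn up with earlier results of these data known. Their counts are descriptions beside the shares of all genes given above.

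The chaperones that assemble mTOR and related kinases had 5 of 7 higher and 1 lower, with a median log2 fold change of 0.30. *Telo2*, a core subunit of the TTT assembly complex, rose most, from 17.9, 19.4 and 18.7 CPM in control to 26.9, 31.6 and 28.9 CPM in cKO (log2 fold change 0.65, adjusted p = 0.000287). *Tti1* (0.30), *Ruvbl1* (0.41), *Ruvbl2* (0.20) and *Hsp90aa1* (0.49) also rose on the log2 scale. *Hsp90ab1*, the constitutive HSP90, was the 1 lower gene (log2 fold change -0.17, adjusted p = 0.023), and it did not pass without cKO replicate 3, control replicate 1 or control replicate 3 (adjusted p = 0.0709, 0.0791 and 0.0656).

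Genes of the PI3K input that activates AKT had 7 of 22 higher and 10 lower (median log2 fold change -0.01). *Igf1r*, the receptor for insulin-like growth factor, was at 26.1, 26.9 and 24.8 CPM in cKO and 9.64, 11.3 and 6.56 CPM in control, and rose 2.83-fold (adjusted p = 5.96e-05). *Pik3cg*, the catalytic PI3K subunit coupled to G proteins, was at 13.1, 9.85 and 13.2 CPM in cKO and 42.4, 40.6 and 39.6 CPM in control. It fell by 1.76 on the log2 scale (adjusted p = 2.97e-06). Both groups were apart in each case.

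The amino acid input to mTORC1, made of the Rag GTPases, their anchors and the GATOR and sestrin regulators, had 6 of 30 measured genes higher and 13 lower (median -0.15). *Itfg2*, a subunit of KICSTOR, rose from 28.2, 28.1 and 31.8 to 35.8, 40.6 and 44.4 CPM (log2 fold change 0.45, adjusted p = 0.00352). *Rragd*, a Rag GTPase, fell from 10.0, 8.47 and 7.02 to 2.84, 3.40 and 2.99 CPM (log2 fold change -1.47, adjusted p = 9.46e-05).

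Genes of the energy and stress input had 2 of 13 higher and 6 lower (median -0.26). *Ddit4*, which encodes REDD1, an inhibitor of mTORC1 in stress, was at 43.7, 46.1 and 46.8 CPM in cKO and 121, 125 and 115 CPM in control. It fell by 1.40 on the log2 scale (adjusted p = 3.62e-07), the smallest adjusted p among the genes named here. *Strada*, a cofactor of the kinase LKB1, had a log2 fold change of 0.26 (adjusted p = 0.0446) and did not pass in 6 of 14 alternatives. The count of higher genes was 0 with no filter on low counts and without cKO replicate 1, cKO replicate 2 or control replicate 3. It was 1 with at least 10 counts required in every sample, with *Xist* as a covariate, and without control replicate 1 or control replicate 2.

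Targets of mTORC1 had 5 of 17 higher and 7 lower (median -0.04), and the 5 became 3 without cKO replicate 1, cKO replicate 2, control replicate 2 or control replicate 3. *Larp1*, a regulator of mRNAs that encode ribosomal proteins, rose from 346, 331 and 352 to 417, 451 and 413 CPM (log2 fold change 0.32, adjusted p = 0.000722). *Lpin1*, which links mTORC1 to lipid synthesis, fell from 24.5, 27.7 and 30.8 to 10.8, 9.58 and 9.22 CPM (log2 fold change -1.49, adjusted p = 6.68e-06). These genes are listed because mTORC1 acts on their proteins, and their RNA is no readout of that action.

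Targets of AKT and mTORC2 had 3 of 13 higher and 3 lower (median -0.09). *Prkca*, a protein kinase C that mTORC2 phosphorylates, was at 155, 169 and 164 CPM in cKO and 88.6, 91.5 and 88.8 CPM in control (log2 fold change 0.86, adjusted p = 2.18e-06). *Ndrg1*, a substrate of the kinase SGK1, was at 41.9, 30.9 and 26.5 CPM in cKO and 82.2, 69.6 and 53.7 CPM in control (log2 fold change -1.05, adjusted p = 0.000828). Neither pair of groups overlapped, and *Ndrg1* had the wider spread between mice.

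**Figure D4:**
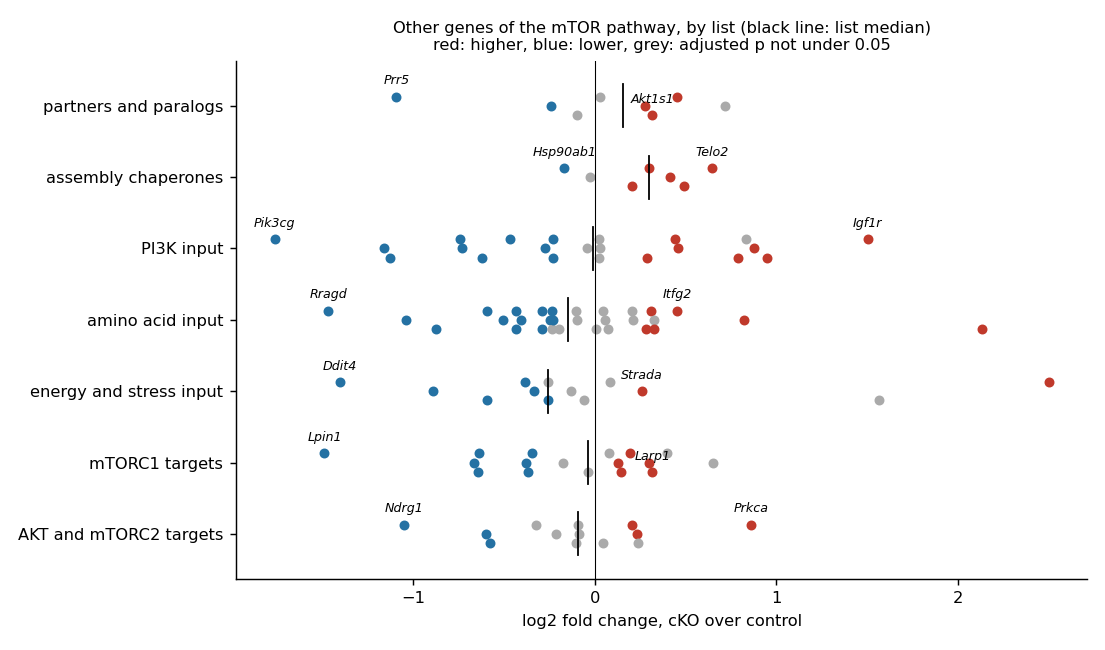
Log2 fold change of cKO over control (x axis) of 110 genes in 7 lists of the mTOR pathway (rows), each point 1 gene, in red where higher, blue where lower and grey where the adjusted p was not under 0.05, with a black line at each list's median and names for the highest and lowest called gene with a mean of at least 5 CPM. Both colours appear in each list, with medians from -0.26 for the energy and stress input to 0.30 for the assembly chaperones.

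The deposited transcript counts split each member into RefSeq transcripts, and for all 10 members they summed to the gene count in every library. *Mtor*, *Rictor* and *Rheb* had 1 transcript each, so their changes are those of that transcript. *Rptor* had 2, of which the lesser took 19.4% of the counts in cKO replicate 1, while it had at most 2 counts in the other libraries. *Akt1* had 2, with 91.3% to 95.6% of its counts in the same one in all libraries.

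For *Tsc1*, whose transcripts differ little in length, 1 transcript was given 2088, 0 and 1570 counts in cKO and 3125, 0 and 0 counts in control, of gene totals of 2745 to 3478. The split thus differed widely between mice of the same group. *Mlst8* had counts in 3 of 4 transcripts, and its first was at 97.2%, 46.9% and 33.7% in cKO and 66.4%, 80.2% and 59.1% in control. All 7 transcripts of *Tsc2* had counts, with the one largest in control at 49.8%, 31.3% and 52.6% in cKO and 53.6%, 56.1% and 64.3% in control. In cKO replicate 2 another transcript was larger, at 51.7%. These shares are descriptions, with no test between the groups, and the gene totals above do not depend on them.

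**Figure D5:**
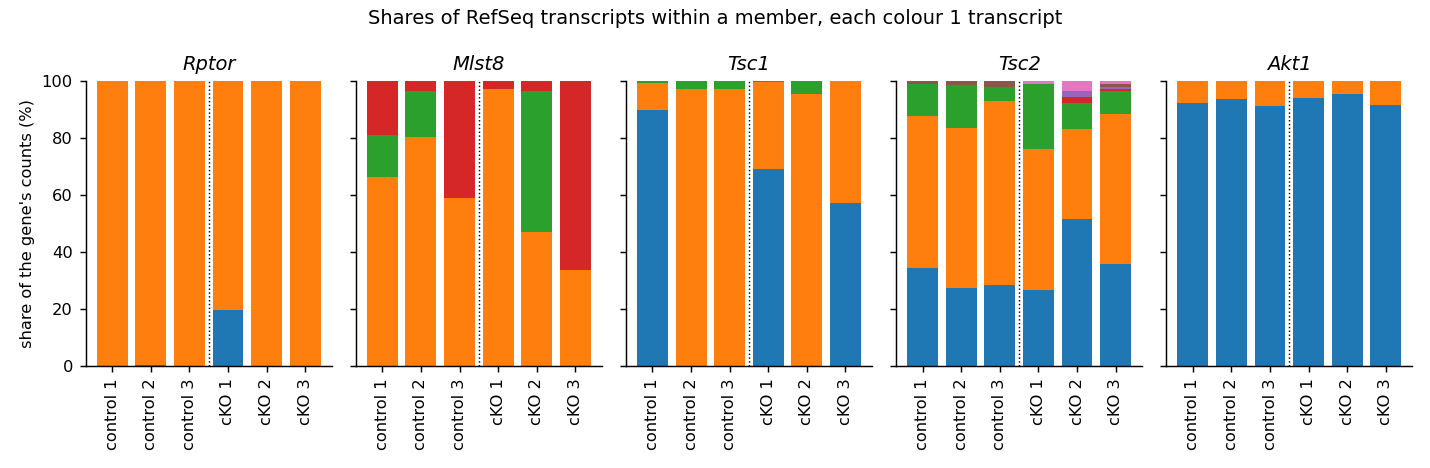
Share of a gene's estimated counts in percent (y axis, stacked to 100) taken by each RefSeq transcript (colours) of *Rptor*, *Mlst8*, *Tsc1*, *Tsc2* and *Akt1* in the 3 control and the 3 cKO libraries (x axis). The split of *Tsc1* and *Mlst8* changes between mice of 1 group, while *Akt1* keeps 91.3% to 95.6% in 1 transcript.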

How the data were processed

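RNA-seq was analysed from 3 cKO and 3 control mice, grouped by the sample labels. The authors trimmed reads, aligned them with HISAT2 and quantified them with StringTie, and wrote the estimated counts per gene and RefSeq transcript, as deposited, with prepDE. These counts are whole and not normalized. The submitters' notes name mm10, and versions, read length and strand setting are not given in the sources used here. Gene positions are from RefSeq (GRCm38.p6). Strands and transcript lengths are from GENCODE M21, matched by symbol or transcript.

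Genes were filtered with filterByExpr (minimum count 10), scaled by TMM and tested without covariates by edgeR 4.0.16 (quasi-likelihood test, Benjamini-Hochberg over all 13296 genes) in R 4.3.3. CPM divides by each library's counts over the genes that passed the filter, multiplied by the TMM factor. For the floor of 3 counts, the library's total counts were used instead, times the same factor. Intervals and the floor of 3 counts cover, respectively, spread between mice and counting error only. The fit was tested on simulated counts. The planned transcript use test (diffSpliceDGE) was not run, since 49.2% of its calls were false on simulated transcripts. Alternatives were DESeq2 1.42.0, other scalings and filters, halved counts, the replicate number or *Xist* as covariates, and each library left out.

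The members and lists were chosen with earlier results of these data known. Named are all members, their listed partners and paralogs (some items are not reported here), *Eif3e*, and from each other list the called genes with the largest rise and fall and a mean of at least 5 CPM. Of the genes named beside these, the other higher chaperones and the overlapping genes were chosen after their values were seen.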

Additional observations from a re-analysis of the deposited data

How the results depend on the processing

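*Mtor*, *Rptor*, *Tsc2*, *Rictor* and *Akt1* kept their direction and passed the test in 14 of 14 alternatives, with log2 fold changes of 0.56 to 0.65, 0.45 to 0.57, 0.21 to 0.29, -0.76 to -0.66 and -0.24 to -0.19. The number of members higher was 3 in each of these, and 1 when a fold change over 1.5 was required. That member, *Mtor*, was under 1.5-fold without cKO replicate 2 (log2 fold change 0.561) or control replicate 1 (0.578). The number lower was 2 to 4 with a replicate left out: 4 without control replicate 2 (*Akt2* and *Rheb* added) and 4 without control replicate 3 (*Mlst8* and *Tsc1* added), and it was 1 with the fold change required. All genes higher and lower then numbered 1378 and 1415. Pathway list genes numbered 22 to 31 higher and 34 to 42 lower over the alternatives. *Prr5l*, which did not pass in any, had a negative log2 fold change with halved counts (-0.0084) and without cKO replicate 1 (-0.05), cKO replicate 3 (-0.08) or control replicate 3 (-0.27), and ranged up to 0.22 with a replicate left out. The cause of these shifts was not tested. The median log2 fold change over all genes stayed within -0.0095 and 0.0039.

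Libraries of the same replicate number deviated together with r = 0.0028, 0.11 and 0.196 for replicates 1, 2 and 3, and only cKO replicate 3 correlated best with the control library of its own number, so the numbers were not taken to pair the mice. With the replicate block, 3 members were higher and 2 lower, 3069 genes were higher and 3165 lower, 28 and 41 pathway list genes were higher and lower, and *Rhebl1* (adjusted p = 0.0705) and *Rps6kb2* (adjusted p = 0.0695) did not pass in edgeR's quasi-likelihood test.

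The alternative without immunoglobulin genes was not run, since its symbol pattern found no immunoglobulin chain gene among the genes tested. The alternatives of the transcript use test were not run, as that test was not used. With 3 mice against 3, the exact permutation test used for ratios within a library cannot give a p below 0.1. Depth limits *Deptor* and *Prr5l*, each under 1 CPM.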
